A study of Mus musculus with 21 samples.

Results

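The BCL2 family members described here are 10 mouse genes that decide between survival and death at the mitochondrion: Bcl2, Bcl2a1b, Bcl2a1d, Bcl2l1, Mcl1, Bcl2l11, Bbc3, Pmaip1, Bax and Bak1. They were chosen by name, as all probes whose target is one of these genes, which gave 21 of the 45281 probes on the array. A probe counted as measurable in a batch when its detection p-value, which ranks it among the array's negative control probes, was below 0.01 on at least 3 arrays of that batch. By this rule 15 member probes were measurable in each batch, 14 of them in both and 5 in neither. Each batch had a measurable probe for 9 of the 10 genes, all but Pmaip1.

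BCL2 family proteins act on the outer mitochondrial membrane. Bax and Bak1 form the pores that release cytochrome c, the pro-survival proteins (Bcl2, Bcl2l1, Mcl1 and the A1 proteins made by the Bcl2a1 genes) hold them in check, and the BH3-only proteins (Bcl2l11, known as Bim; Bbc3, known as Puma; Pmaip1, known as Noxa) bind the pro-survival proteins and so favour death. In cells that depend on a cytokine, signalling through the receptor is known to keep pro-survival genes active and Bcl2l11 low.

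The cells were Ba/F3, a mouse pro-B line that needs interleukin 3 to live, and total RNA was measured on Illumina bead arrays. In batch A, cells were moved continuously by digital microfluidic actuation, in which electrode voltage drives a droplet, for 15 min at 400 Vpp and 18 kHz or 1 kHz, against untreated cells. In batch B, cells were heated for 15 min at 42, 47 or 52 °C, against a second untreated group. Each of the 7 groups had 3 arrays, and the labels do not say that these came from separate cultures, so p-values measure the spread between these arrays, which may be technical. The labels used here do not state the time between treatment and lysis. Cell death was not measured here, and with bulk RNA fewer cells carrying a transcript cannot be told apart from less of it per cell.

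Several arrays stood apart. The 95th percentile of intensity was 277.4 to 1111 on the 18 kHz arrays, against 1482 to 1524 on the untreated arrays of batch A. In batch B it was 934.8, 861.6 and 1110 at 47 °C and 1082, 847.4 and 846 at 52 °C. These lay below the 1256, 1376 and 1537 of untreated cells, while 42 °C arrays stood at 1564, 997.1 and 1243. Whether brightness bears on the calls was not tested. The number of probes detected per array ran between 9420 and 14355 in batch A and between 12004 and 13234 in batch B. Hba-a1, a haemoglobin gene and an erythroid marker, was at log2 levels of 4.53, 9.99 and 9.93 on the 52 °C arrays 1, 2 and 3, against 4.80, 4.96 and 5.25 on the untreated arrays of batch B, while the highest value at 42 and 47 °C was 5.40. Arrays 2 and 3 at 52 °C therefore lay apart from all other batch B arrays in this gene, and near the 8.72 to 10.08 of batch A, which was normalized apart. They also lay apart from array 1 in mast cell and myeloid markers: on arrays 1, 2 and 3 at 52 °C, Cpa3 was at 12.43, 10.61 and 10.73 (12.10 to 12.35 untreated), Mpo at 8.11, 7.40 and 7.36 (9.11 to 9.75) and Prtn3 at 7.09, 8.62 and 8.55 (7.62 to 7.77). The labels give all 3 as 52 °C arrays, and what sets these 2 apart was not tested. Calls of member genes that rest on them are given with and without them. The marker changes at 52 °C below are from all 3 arrays. Ms4a2, another mast cell marker, was at 5.91, 4.61 and 5.21 on arrays 1, 2 and 3 (5.94 to 6.46 untreated). Hbb-b1, another haemoglobin gene, had no measurable probe, but a signal on 2 arrays alone could not pass that rule. Its probes 1300440, 3610392, 4290291 and 6100671 were each detected on 2 arrays of batch B. Which arrays these were is not given here. Of 12 listed B-lineage markers 2 were measurable (Cd79b and Ptprc, not Pax5 or Ebf1), while Cd79a and Igll1 had 0 probes to measure them. Also measurable were 5 of 8 mast cell and myeloid markers and 3 of 3 interleukin 3 receptor genes. Of these measurable markers, Mpo fell by 1.92 log2 at 52 °C (limma adjusted p = 0.000569), Ms4a2 by 0.93 (adjusted p = 0.0398) and Csf2rb, the receptor's common beta chain gene, by 1.28 (adjusted p = 0.00393), while Cd79b rose by 0.88 at 47 °C (adjusted p = 0.00182). Dnajb1, a heat shock chaperone gene, rose by 3.94 log2 at 42 °C (limma, Benjamini-Hochberg adjusted p = 2.02e-09) and did not pass the test at 47 °C (-0.15, adjusted p = 0.458), 52 °C (-0.36, adjusted p = 0.0649) or 18 kHz (-0.43, adjusted p = 0.0924).

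The sequences upstream of the A1 genes are shown first because they show how alike these copies are before their starts. In the RefSeq annotation of build GRCm38.p6 both lie on chromosome 9, on opposite strands, and the upstream stretches below are the parts of the 250 bases before each annotated start that align with one another. Capitals mark the bases that differ between the genes.
Bcl2a1d, chr9:88731851-88732050, minus strand, ending at the annotated start: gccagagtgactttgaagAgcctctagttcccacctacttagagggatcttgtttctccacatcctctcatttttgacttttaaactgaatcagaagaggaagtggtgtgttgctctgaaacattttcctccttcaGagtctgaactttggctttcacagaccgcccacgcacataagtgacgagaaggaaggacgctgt
Bcl2a1b, chr9:89199023-89199228, plus strand, ending 44 bases before the annotated start: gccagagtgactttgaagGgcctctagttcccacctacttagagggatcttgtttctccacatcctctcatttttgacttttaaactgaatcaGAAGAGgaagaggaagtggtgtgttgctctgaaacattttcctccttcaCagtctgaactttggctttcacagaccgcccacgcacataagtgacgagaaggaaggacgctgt
Of 200 aligned bases 198 were the same, and Bcl2a1b holds a short insertion beside them. These bases lie before the annotated starts, so their likeness does not show what a probe reads. The genes are near-identical copies, but transcript sequences were not compared and the files give no probe sequences. A probe for one may read the other or further A1 copies. The signals below are therefore given as those of A1 probes, and the split between the copies is uncertain. Both stretches hold one match to TGANTCA, a loosened form of the AP-1 motif with any base in the middle. It reads tgaatca, 114 bases before the annotated start of Bcl2a1d and 164 bases before that of Bcl2a1b. The usual AP-1 motif has C or G in the middle, where these have A. Both matches lie at the same place of the aligned copies. Searched on both strands, this loosened pattern is found in 6.75% of 32851 RefSeq promoters and among the members in the A1 pair alone. Of the other motifs searched, the heat shock element as GAANNTTC (6.69% of all promoters) or TTCNNGAA (7.17%) and the STAT motif TTCNNNGAA (7.02%) were found in 0 of 14 member promoters. The NF-kB motif GGGNNNTTCC (4.65%) was found in those of Bbc3, Bcl2l1 and Mcl1. A p53 half-site (7.13%) was found in that of Bax and not in those of Bbc3. Pmaip1 had 0 promoters to search. At these shares 14 promoters would hold few matches or none. A match describes these letters and is not a binding site.

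Both A1 probes were lower at 42 °C than in untreated cells, and at 47 and 52 °C they were higher than at 42 °C. On the log2 scale of normalized intensity, the Bcl2a1d probe stood at 6.15, 6.10 and 6.45 on the 42 °C arrays, against 8.14, 8.02 and 8.17 on the untreated arrays. Every 42 °C array lay below every untreated array, by more than 1.5 log2, and the raw bead intensities, 217.6, 160.5 and 213.3 at 42 °C against 432.1, 424.5 and 518.4 untreated, did not overlap either. The difference was -1.88 (95% interval -2.42 to -1.33), a fold of 3.68 lower. Its adjusted p was 0.00133 by limma with Benjamini-Hochberg adjustment over all 13773 probes.

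The Bcl2a1b probe was at 5.99, 6.52 and 6.14 at 42 °C, against 7.88, 7.70 and 7.59 in untreated cells. It fell by 1.51 log2 (fold 2.85 lower, limma adjusted p = 0.00803), again with no overlap between the groups. Both calls held when any one of the 6 arrays was left out. Within single beadchips, the slides that carry the arrays, the Bcl2a1d change was -1.84 on the first and -2.00 on the second and that of Bcl2a1b -1.81 and -1.13, at adjusted p of 0.138 or more in limma, with 1 array in one of the groups each time. A second Bcl2a1d probe, 3180408, was detected on 0 of 12 arrays of this batch.

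At 47 °C the Bcl2a1d probe was at 8.33, 9.12 and 9.11, all 3 above the untreated arrays, and at 52 °C it was at 7.67, 8.64 and 8.27, around them. Against untreated cells neither difference passed the test (0.74 at 47 °C, limma adjusted p = 0.0901; 0.08 at 52 °C, adjusted p = 0.862), though without 47 °C array 1 the first was 1.00 and passed (adjusted p = 0.0373). The Bcl2a1b probe, at 8.49 ± 0.36 at 47 °C, 7.9 ± 0.56 at 52 °C and 7.72 ± 0.14 untreated (SD, n = 3), passed at neither temperature. With only the arrays of the 2 groups it passed at 47 °C (0.77, limma adjusted p = 0.0495). In the authors' deposited log2 values both probes passed at 47 °C (Bcl2a1d 0.54, limma adjusted p = 0.022, and Bcl2a1b 0.53, adjusted p = 0.0214). Set directly against 42 °C, however, Bcl2a1d was 2.62 log2 higher at 47 °C (fold 6.13, limma adjusted p = 0.000128) and 1.96 higher at 52 °C (fold 3.88, adjusted p = 0.000793). The Bcl2a1b probe was 2.28 higher at 47 °C than at 42 °C (adjusted p = 0.000544) and 1.68 higher at 52 °C than at 42 °C (adjusted p = 0.00271). The 42 °C level was thus the low point of the heat series for both probes. With 52 °C arrays 2 and 3 left out, the last 2 values were 1.44 for Bcl2a1d, still past the test, and 1.05 for Bcl2a1b, which was not (adjusted p = 0.102).

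**Figure D1:**
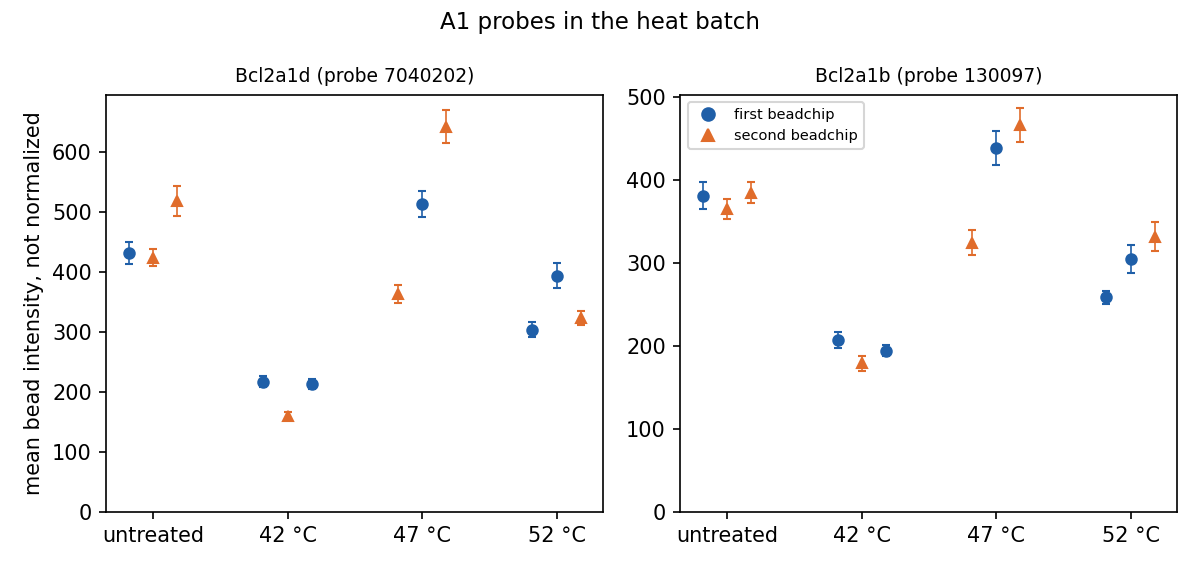
Mean bead intensity (not normalized, linear axis from 0) of the Bcl2a1d and Bcl2a1b probes on the 12 heat batch arrays, 3 per group, with bars of 1 standard error over the beads of the array. The 3 arrays at 42 °C lie below all untreated arrays in both panels, and the shape of a point gives its beadchip.

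Over the 12 heat batch arrays the 2 A1 probes correlated at r = 0.969 and over the 9 actuation arrays at r = 0.921, a description of probes that may share targets. The named genes most like Bcl2a1d across the 12 arrays were Zmynd8 (r = 0.960), Ngp, a neutrophil granule protein gene (r = 0.945), and Cd33, a myeloid surface receptor gene (r = 0.945). Their differences from untreated cells at 42 °C were -0.32, -2.94 and -0.75, values that the choice by likeness over the same arrays bears on. Of the 5 measurable mast cell and myeloid markers (Mpo, Cpa3, Gata2, Prtn3 and Ms4a2, but not Kit, Elane or Csf1r) 0 passed the test at 42 °C. Prtn3 was at 7.29 to 7.33 there, below its 7.62 to 7.77 in untreated cells, while the others overlapped. The summed log2 level of the 5 was 13.98 to 14.04 at 42 °C, against 13.95 to 14.11 in untreated cells. At 47 °C the sum was 14.21 to 14.51, above the untreated range, and at 52 °C 13.78 to 14.23. Gata2, at 13.20 or more on every array of batch B, gave most of each sum, so the sums say little about the other markers. They show neither the lower Prtn3 at 42 °C nor the falls of Mpo and Ms4a2 at 52 °C. For Bcl2a1b the most alike genes were Polr2j (r = 0.964), Cstdc5 (r = 0.938) and Zmynd8 (r = 0.936).

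In the actuation batch the A1 probes did not pass the test. Bcl2a1d was at 9.96, 9.36 and 10.11 at 18 kHz, against 10.04, 10.24 and 10.15 in untreated cells, a difference of -0.34 (95% interval -0.77 to 0.10, limma adjusted p = 0.271), and the lowest value was on array 2, the dimmest. At 1 kHz the difference was 0.05 (-0.39 to 0.48). The Bcl2a1d change at 18 kHz was 1.44 log2 above that at 42 °C (95% interval 0.73 to 2.14, adjusted p = 0.0355 in a joint limma fit of all 21 arrays), and for Bcl2a1b this gap was 1.26 (adjusted p = 0.0863; 1.53 and past the test without 18 kHz array 2, adjusted p = 0.0258). The Bcl2a1d call did not hold in 10 of 12 fits that each left out 1 array, where adjusted p reached 0.0962, and it also missed the threshold with no background correction, an offset of 50, median scaling, no detection filter or the beadchip as a block.

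**Figure D2:**
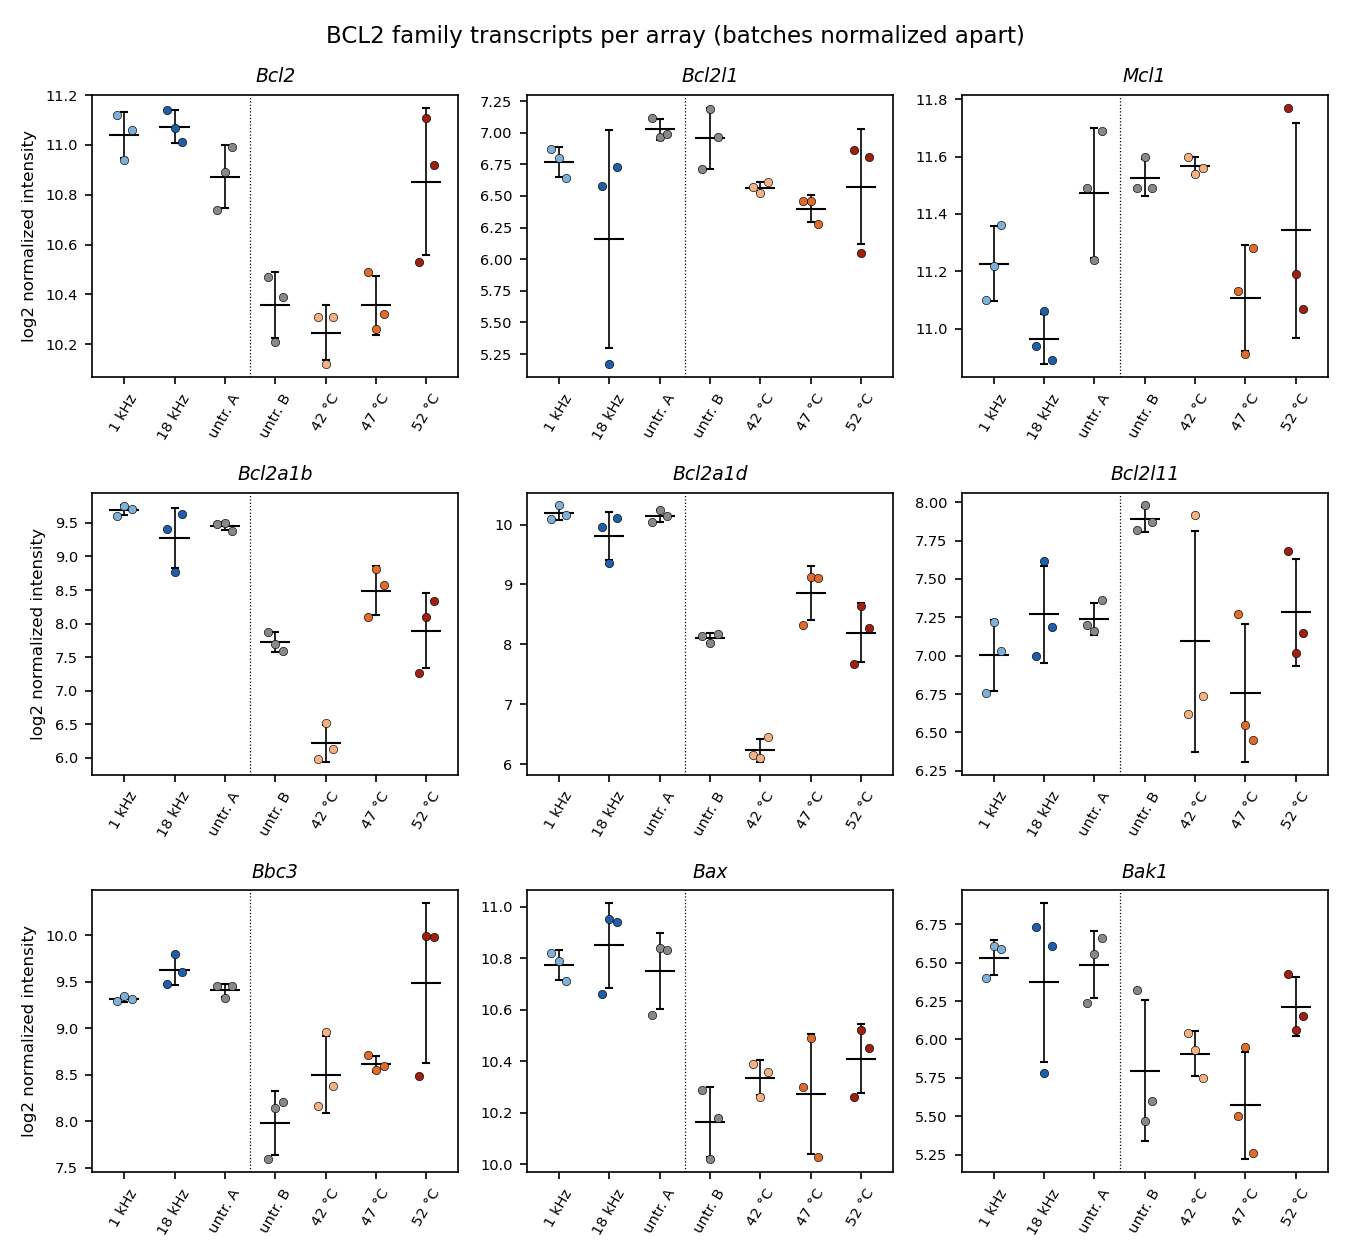
Log2 normalized intensity of the described probe of each of 9 genes, with 1 point per array, a line at the mean and bars of 1 SD (n = 3). Batch A (1 kHz, 18 kHz, untreated) is left of the dotted line and batch B (untreated, 42, 47 and 52 °C) right of it, normalized apart, so levels are compared within a side; the axes do not start at 0 and differ between panels.

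The level of some members differed between the untreated groups, which were hybridised in different batches and normalized apart, so that batch and culture cannot be told apart. The Bcl2a1d probe averaged 10.14 ± 0.10 in untreated cells of batch A and 8.11 ± 0.08 in those of batch B (SD, n = 3 each), and Bbc3 9.41 ± 0.07 and 7.98 ± 0.34. Bax (10.75 ± 0.15 and 10.17 ± 0.14) and Mcl1 (11.47 ± 0.23 and 11.53 ± 0.07) lay closer.

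Among the other pro-survival genes, Bcl2, the founding member of the family, was read by 2 measurable probes that disagreed. Probe 5570358 was at 8.41, 8.51 and 8.38 at 42 °C, against 8.98, 9.37 and 9.21 in untreated cells, and fell by 0.75 log2 (limma adjusted p = 0.041). The call was lost when any one of the 6 arrays was left out, with adjusted p of up to 0.162, and within the first and second beadchip the change was -0.58 and -0.78. The brighter probe 6420612 differed by -0.11 (95% interval -0.46 to 0.24) at 42 °C, with overlapping groups. This brighter probe was at 10.53, 11.11 and 10.92 at 52 °C, against 10.31, 10.12 and 10.31 at 42 °C and 10.47, 10.21 and 10.39 untreated. It was 0.61 higher at 52 °C than at 42 °C (limma adjusted p = 0.038), and 0.50 higher than in untreated cells, which did not pass (adjusted p = 0.0582; 0.66 without 52 °C array 1, adjusted p = 0.00643, and 0.18 without arrays 2 and 3, adjusted p = 0.665). Its high values were those of arrays 2 and 3, and without them the gap to 42 °C was 0.29 (adjusted p = 0.446), while 5 of 6 fits that left out 1 array ended the call, as did median scaling (0.20, adjusted p = 0.586). With actuation neither probe passed the test, and the brighter one differed by 0.21 for 18 kHz (-0.05 to 0.46) and 0.17 for 1 kHz.

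Bcl2l1 encodes Bcl-xL, which like Bcl2 binds BH3-only proteins. Its described probe, 1240546, passed the test in 0 of the 5 comparisons with untreated cells: levels were 6.58, 5.17 and 6.73 at 18 kHz, against 7.12, 6.97 and 6.99 in untreated cells of batch A, a difference of -0.87 (limma adjusted p = 0.156). All 3 of the 18 kHz values lay below the untreated ones, and the lowest was again on the dimmest array. Without array 3 the difference was -1.16 and passed (limma adjusted p = 0.0432), and without array 2, the dimmest, it was -0.38 (adjusted p = 0.127). With heat the differences were -0.39, -0.55 and -0.38 at 42, 47 and 52 °C, with adjusted p of 0.111 or more. Under median scaling they were -1.07 at 47 °C and -0.82 at 52 °C and passed (limma adjusted p = 0.00609 and 0.0224). The median over all probes moved by -0.46 and -0.43 under that scaling. The dimmer probe 7510608 was called lower at 42 °C (4.85 ± 0.09, against 5.63 ± 0.05 in untreated cells; SD, n = 3; limma adjusted p = 0.0444). It was detected on 0 of 3 arrays at 42 °C and on 3 of 3 untreated arrays, which bounds the fold at no less than 1.29 lower, and the call was lost when any one array was left out. Of the 12 arrays of batch B it was detected on 5, 3 of them untreated. It thus passed the filter only through the group where it was high, and its call is no test of a fall.

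Mcl1, whose protein turns over fast, stood at 10.94, 11.06 and 10.89 at 18 kHz, against 11.49, 11.24 and 11.69 in untreated cells, with no overlap. The difference of -0.51 (95% interval -0.83 to -0.19) had an adjusted p of 0.0758 in limma and so did not pass, although it did with no background correction (adjusted p = 0.037) or when detection on every array was required (adjusted p = 0.0393). At 1 kHz the difference was -0.25 (-0.57 to 0.08). Heat at 42 °C left Mcl1 at 0.04 (-0.34 to 0.42) from untreated cells, and the values at 47 and 52 °C were -0.42 (adjusted p = 0.153) and -0.18 (adjusted p = 0.517; -0.39 and past the test without 52 °C array 1, adjusted p = 0.0488, but 0.24 without arrays 2 and 3, adjusted p = 0.521). Under median scaling Mcl1 passed at 47 °C (-0.9, limma adjusted p = 0.0148) and 52 °C (-0.73, adjusted p = 0.0395). All probes shifted by -0.46 and -0.43 under that scaling. In the authors' deposited log2 values it also passed at 47 °C (-0.39, limma adjusted p = 0.0461). The 18 kHz change was 0.56 below the 42 °C change (-1.04 to -0.08, adjusted p = 0.221).

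Of the BH3-only genes, Bcl2l11, which encodes Bim, fell at 47 °C. Its described probe, 5820168, was at 7.27, 6.55 and 6.45 at 47 °C, against 7.82, 7.98 and 7.87 in untreated cells, with no overlap, and fell by 1.13 log2 (fold 2.19 lower, limma adjusted p = 0.0488). The call was lost in 5 of 6 fits that left out 1 array, with limma adjusted p of up to 0.157. It held only without 47 °C array 1 (-1.4, adjusted p = 0.0365). Within the first and second beadchip the change was -1.27 and -1.07, past the threshold in neither. At 42 °C the arrays read 6.62, 7.92 and 6.74, so that array 2 was as high as untreated cells, and the difference of -0.80 did not pass (adjusted p = 0.255; -1.21 and past the test without array 2, adjusted p = 0.0443), nor did that of -0.61 at 52 °C (adjusted p = 0.222). Probe 2360689 for the same gene was called lower at 52 °C (4.71 ± 0.14, against 5.35 ± 0.19 in untreated cells; SD, n = 3; limma adjusted p = 0.036). Detection on 0 of 3 arrays at 52 °C and 3 of 3 untreated arrays bounds its fold at no less than 1.08 lower, and the call was lost in 5 of 6 fits that left out 1 array. Without 52 °C arrays 2 and 3 its change was -0.53. This probe was detected on 4 of 12 arrays of batch B, 3 of them untreated. It thus passed the filter only through the group where it was high, and its call is no test of a fall. Of the remaining Bcl2l11 probes, 1780735 was detected on 2 arrays of batch A and 1 of batch B and 4060747 on 0. With actuation the described probe differed by 0.03 at 18 kHz (-0.39 to 0.45) and -0.23 at 1 kHz. Slc15a4 was the named gene most like Bcl2l11 over the 12 heat arrays (r = 0.919), ahead of Alg5 (r = 0.881), and at 47 °C these differed from untreated cells by -1.29 and -0.26, values that the choice by likeness bears on.

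Bbc3, which encodes Puma, a target of p53, was higher at 52 °C. Its described probe, 450615, was at 8.49, 9.99 and 9.98 at 52 °C, against 7.59, 8.14 and 8.21 in untreated cells. Every 52 °C array lay above the untreated arrays, but array 1 by little and arrays 2 and 3 by a wide margin, as was also seen for Hba-a1 on those arrays, which differed from array 1 in Cpa3 and Prtn3 too. The change was 1.51 log2 (fold 2.84, 95% interval 1.68 to 4.81, limma adjusted p = 0.0179), and with arrays 2 and 3 left out it was 0.51 (adjusted p = 0.45). Leaving out array 2, array 3 or untreated array 1 also ended the call, at 1.26, 1.26 and 1.31, while leaving out array 1 at 52 °C gave 2.01. Within the first and second beadchip the change was 1.65 (adjusted p = 0.309) and 1.81 (adjusted p = 0.0193), the first with 1 untreated array and the second with 1 array at 52 °C, array 3, so that the passing value rests on an array that stood apart. Whether what sets these arrays apart has a part in this result was not tested. At 42 and 47 °C the differences were 0.52 and 0.64 and did not pass (adjusted p = 0.533 and 0.274).

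The dimmer Bbc3 probe 3360468 was at 5.59, 5.83 and 5.63 at 52 °C, against 4.71, 5.27 and 4.96 in untreated cells, with detection on 3 of 3 arrays at 52 °C and 1 of 3 untreated arrays. Its 3 arrays at 52 °C lay close together. It was 0.70 higher than in untreated cells (limma adjusted p = 0.0245) and 0.77 higher than at 42 °C (adjusted p = 0.021), where it was detected on 0 of 3 arrays, so that the fold is at least 1.34. In raw bead intensity this probe did not rise, at 154, 143.3 and 129.1 for 52 °C, against 141.4, 153 and 150.7 untreated, so that the gain appears after background correction and normalization, and with no background correction the change was 0.20 (adjusted p = 0.0899). Both calls were also lost in 4 of 6 fits that left out 1 array, with median scaling, and without 52 °C arrays 2 and 3, where the changes were 0.63 and 0.69. The third probe, 2320195, was detected on 3 of 12 arrays and was not called. Tmem154 (r = 0.983), Trafd1 (r = 0.979) and Usb1 (r = 0.972) were most like Bbc3 over the 12 arrays. In the actuation batch Bbc3 was at 9.48, 9.80 and 9.61 at 18 kHz, against 9.45, 9.33 and 9.45 in untreated cells, a difference of 0.22 (-0.04 to 0.48, adjusted p = 0.236).

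**Figure D3:**
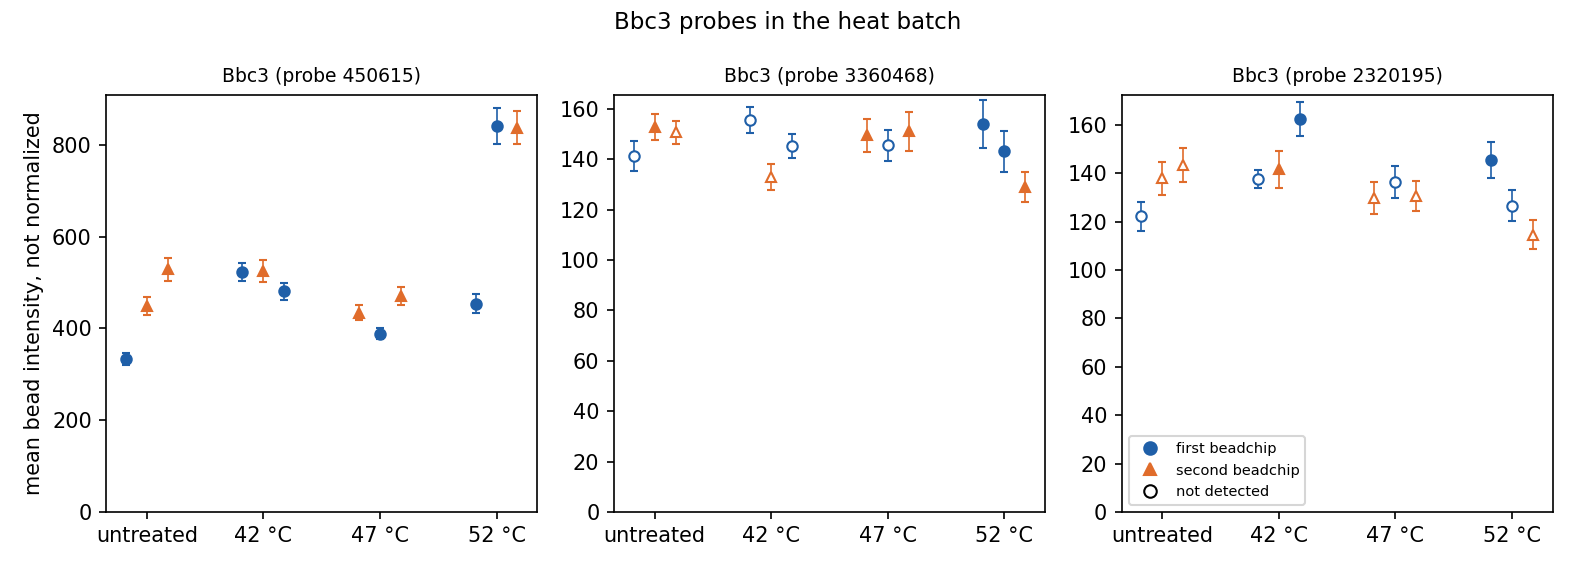
Mean bead intensity (not normalized, linear axis from 0) of the 3 Bbc3 probes on the 12 heat batch arrays, 3 per group, with bars of 1 standard error over the beads; open points were not detected at p below 0.01. For probe 450615, arrays 2 and 3 at 52 °C stand at 841.3 and 837.9 and array 1 at 454, while the other probes lie near background.

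Pmaip1, the gene of Noxa, was detected by 0 of its 3 probes on the 21 arrays, so that no change of it could be measured at this signal.

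The effector genes passed the test in 0 comparisons. Bax, at 10.66, 10.95 and 10.94 at 18 kHz, against 10.58, 10.84 and 10.83 in untreated cells, differed by 0.10 (95% interval -0.19 to 0.39). At 1 kHz it differed by 0.02, and at 42, 47 and 52 °C by 0.17, 0.11 and 0.24, with the largest upper bound at 0.56. The groups overlapped in the 18 kHz comparison, and at 52 °C the adjusted p was 0.285. Bak1 was at 6.73, 5.78 and 6.61 at 18 kHz, against 6.24, 6.56 and 6.66 in untreated cells, a difference of -0.11 (-0.67 to 0.45) with overlapping groups. At 52 °C Bak1 was 0.42 above untreated cells (-0.08 to 0.91, limma adjusted p = 0.243).

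**Figure D4:**
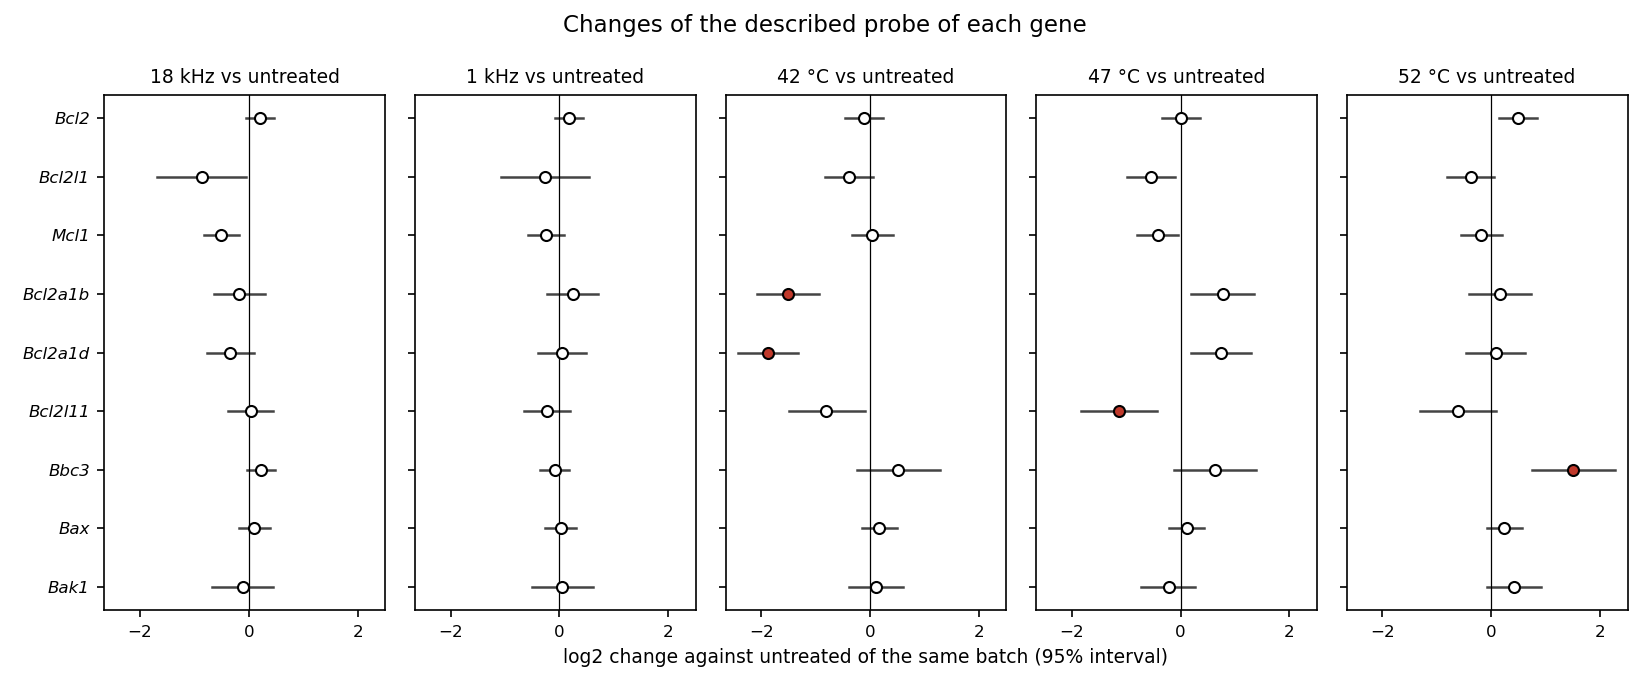
Log2 change of the described probe of each of 9 genes against untreated cells of the same batch, with 95% intervals from limma (n = 3 per group). Filled points passed an adjusted p of 0.05: both A1 genes at 42 °C, Bcl2l11 at 47 °C and Bbc3 at 52 °C; 0 of 9 passed with actuation.

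Counted over all measurable member probes, 0 of 15 were called at 18 kHz, where 2.94% of all probes were called, and 0 of 15 at 1 kHz, where 0% were. At an unadjusted p under 0.05 in limma these counts were 3 at 18 kHz, against 28.3% of all probes, and 0 at 1 kHz, against 1.78%. Heat called 4 of 15 lower at 42 °C (2 A1 probes and 1 each of Bcl2 and Bcl2l1), against 2.38% of all probes called and 1.21% called lower. At 47 °C 1 of 15 was called, lower, a share near that of all probes (7.83% called, 4.41% lower). At 52 °C 3 of 15 were called, 2 Bbc3 probes higher and 1 Bcl2l11 probe lower, where 12.8% of all probes were called, 6.55% higher and 6.24% lower. Between temperatures, 2 of 15 were higher at 47 than at 42 °C (2.38% of all probes called, 1.08% higher) and 4 of 15 higher at 52 than at 42 °C (7.44%, 3.82% higher). Between 52 and 47 °C 0 of 15 were called (3.46%), and 5 had an unadjusted p under 0.05 in limma (23.1%). Between 18 and 1 kHz 0 of 15 were called (2.41%), and 2 had an unadjusted p under 0.05 (26.9%). In the joint fit 1 of 16 differed, higher, between the 18 kHz and 42 °C effects (1.51% of all probes called, 0.678% higher). For 18 kHz against 47 °C and against 52 °C 0 of 16 were called (0.215% and 0.799%), with 4 (14.2% of all probes) and 2 (18.1%) at an unadjusted p under 0.05. The median size of change over member probes was 0.21 at 18 kHz and 0.39, 0.46 and 0.42 at 42, 47 and 52 °C, beside 0.28, 0.18, 0.25 and 0.27 over all probes. Quantile normalization removes a shift of all transcripts together. With each array scaled to one median instead, the median over all probes moved by -1.09 at 18 kHz and by -0.15, -0.46 and -0.43 at 42, 47 and 52 °C. Under that scaling 6 of 15 member probes were called lower at 18 kHz, with changes of -1.75 to -1.12, where 49.1% of all probes were called. Probes that pass the filter through one bright group had to differ between groups, so these shares describe the probes and are no test of the family. The called Bcl2l1 probe 7510608 and Bcl2l11 probe 2360689 passed it in batch B only through untreated cells, where they were brightest.

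Of the genes listed as further family members, caspases, inhibitors of apoptosis, death receptors and regulators, 52 were measurable in batch A and 51 in batch B, and 0 passed at 18 kHz, 1 kHz or 42 °C, 2 at 47 °C and 5 at 52 °C, counts that stand beside 2.94%, 0%, 2.38%, 7.83% and 12.8% of all probes. At 47 °C Bcl2l2, a further pro-survival gene, rose by 0.65 log2 (limma adjusted p = 0.0233), and Hif1a, a hypoxia factor, fell by 0.76 (adjusted p = 0.0174). At 52 °C Hif1a fell by 0.84 (adjusted p = 0.0074), Gsk3b, a kinase that marks Mcl1 protein for turnover, by 0.91 (adjusted p = 0.0261), while Btrc, which encodes a ubiquitin ligase subunit, rose by 0.72 (adjusted p = 0.00906), Birc2, an inhibitor of apoptosis, by 0.52 (adjusted p = 0.0318) and Myc by 0.95 (adjusted p = 0.0451). None of these 5 calls at 52 °C held with arrays 2 and 3 left out, where 1 array remained and adjusted p was 0.116 or more. Without them Hif1a (-0.86), Btrc (0.76) and Myc (1.06) differed by as much as before, and Gsk3b (-0.39) and Birc2 (0.37) by less. With median scaling Bcl2l2 was 0.11 above untreated cells at 47 °C (adjusted p = 0.721), and Birc2 0.02 (adjusted p = 0.947), Btrc 0.25 and Myc 0.57 above them at 52 °C, none of which passed. Leaving out 1 array ended the Bcl2l2, Birc2 and Myc calls in 5 of 6 fits each and those of Gsk3b and of Hif1a at 47 °C in 4 of 6. The mitochondrial and caspase list (14 measurable genes in batch B) and the death receptor list (9 measurable genes) had 0 calls in each comparison with untreated cells, with list medians between -0.23 and 0.16. At the share of all probes called, lists this short would hold few calls or none.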

How the data were processed

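For each batch the authors deposited a GenomeStudio export of mean bead intensity per probe, with neither normalization nor background subtraction, per the file headers. Next to it are the deposited detection p-value, bead number and standard error. The beads behind a member value numbered 17 to 66 (median 40), which limits the precision. For batch A, 3 further arrays match no sample and were not used. From these values, limma 3.58.1 in R 4.3.3 (data.table, version 1.17.8) removed background by the normal-exponential model with parameters inferred from the detection p-values, added an offset of 16, quantile normalized each batch alone and took log2. Probes detected at p below 0.01 on at least 3 arrays of a batch were fitted (14130 in batch A, 13773 in batch B) with group means over all arrays of the batch, two-sided, with Benjamini-Hochberg adjustment over all probes and a threshold of 0.05. Differences between effects of actuation and heat came from a joint fit of 14901 probes on 21 arrays normalized together.

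The gene's brightest measurable probe was described, and a called probe was always given. Per pathway list and comparison up to 3 called genes with the smallest p were named (Myc lay outside this rule and was named after its values were seen), and likeness is Pearson's r over the 12 heat arrays. A fold bound sets undetected arrays at their lowest detected level or their own, whichever is higher. The authors' deposited log2 values (40083 probes, method not given in the sources used here) served as an alternative for batch B, matched through batch B intensities. Other alternatives were no background correction, another offset, median scaling, other filters, blocks, single beadchips and left-out arrays. The members and lists were chosen with earlier results of these data known. The direct comparison of 52 with 42 °C and the fits without 52 °C arrays 2 and 3 were added after the values were seen. Tested on simulated data, the fit found 6% of probes changed by 0.5 log2, 50% of those changed by 1 and 86% of those changed by 2 in the 18 kHz comparison, and 10%, 60% and 96% in the 42 °C comparison. The simulated noise was independent and normal, with the same SD in each group of a batch and no dim arrays. The real 18 kHz and 42 °C arrays differed in brightness, so these rates need not hold for them. Promoter sequences are RefSeq's for build GRCm38.p6, and the build of the arrays' annotation is not given in the sources used here. Figures were drawn with matplotlib.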

Additional observations from a re-analysis of the deposited data

Results flagged for a closer look

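These values are differences between 2 treatments that passed a limma test of the difference itself. The A1 probes stood higher at 47 °C than at 42 °C, by 2.62 log2 for Bcl2a1d and 2.28 for Bcl2a1b, and higher at 52 °C than at 42 °C, by 1.96 and 1.68. At 52 °C against 42 °C, the Bbc3 probe 3360468 was higher by 0.77 and the Bcl2 probe 6420612 by 0.61. The Bcl2a1d change at 18 kHz lay 1.44 above its change at 42 °C. Leaving out 1 array ended the Bbc3 call in 4 of 6 fits, the Bcl2 call in 5 of 6 and this Bcl2a1d call in 10 of 12. Without 52 °C arrays 2 and 3 the Bcl2 difference was 0.29.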

How the results depend on the processing

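Both A1 calls at 42 °C, and those of 47 and 52 °C against 42 °C, held under the other settings of the whole batch and in every fit that left out 1 array. They missed the threshold within single beadchips, and Bcl2a1b at 52 against 42 °C did so without 52 °C arrays 2 and 3. The counts of called member probes moved by over 1.5 times as follows. With no background correction they were 1 at 18 kHz, 1 for 52 against 47 °C and 0 for the 18 kHz less the 42 °C effect, which was also 0 with an offset of 50, median scaling, no detection filter or the beadchip as a block. Median scaling gave 6 at 18 kHz, 8 for 18 against 1 kHz, 6 at 47 °C, 7 at 52 °C and 2 for 52 against 42 °C, beside 49.1%, 54.9%, 32.1%, 31.1% and 8.71% of all probes, and turned Bcl2l11 to -1.12 at 18 kHz and, for 18 against 1 kHz, Bax to -1.16 and Bcl2 to -1.17, beside shifts of all probes of -1.09 and -1.13. All 21 arrays normalized together gave 0 at 47 °C. Detection on every array gave 1 at 18 kHz. No detection filter gave 2, 0 and 1 at 42, 47 and 52 °C. One probe per gene gave 2 at 42 °C and 1 at 52 °C. Only the arrays of the 2 groups gave 2 at 47 °C and 0 at 52 °C. Within the first beadchip of batch B the counts were 0 at 42, 47 and 52 °C and for 47 and 52 against 42 °C, and within the second 0, 0, 1, 0 and 0. Within the second of batch A 18 against 1 kHz, with 1 array at 18 kHz, gave 2, beside 29.4% of all probes. The deposited log2 table gave 5 at 47 °C and 3 for 52 against 47 °C (13.3% and 9.74% of all probes). Smaller moves, of 1 probe, were to 3 at 42 °C, 2 at 52 °C and 3 or, in the deposited table, 5 for 52 against 42 °C. Same-numbered arrays did not deviate together (r -0.23 to 0.45 in batch A, -0.43 to 0.15 in batch B), and the replicate number as a block gave 0 at 47 °C, where Bcl2l11 had an adjusted p of 0.0653. Without 18 kHz arrays 1 and 2 the counts were 0 at 18 kHz, 0 for 18 against 1 kHz and, for effects less those at 42, 47 and 52 °C, 1, 0 and 0. Without 52 °C arrays 2 and 3 they were 0 at 52 °C and 1 for 52 against 42 °C, with the lone array assumed to vary like the other groups. Leaving out 1 array gave 0 to 2 at 18 kHz (2 without array 3, beside 31.6% of all probes), 2 to 3 at 42 °C, 0 to 2 at 47 °C, 0 to 5 at 52 °C (5 without array 1, beside 26.9%), 0 to 2 for 18 against 1 kHz (up to 28% of all probes) and for 52 against 47 °C (up to 10.9%), 2 to 6 for 52 against 42 °C (up to 17.5%), and 0 to 2, 0 to 2 and 0 to 1 for the 18 kHz effect less those at 42, 47 and 52 °C. The causes of these moves were not tested. Values were also followed for member probes together with probes of listed genes such as Hif1a and of check genes such as Dnajb1. Of 3338 alternative values of these that were not called at first, 224 changed sign, of which 3 were called after it, and 76 became called. Dim probes, those for Bcl2l1 and Bcl2l11 detected on few arrays, limit what can be said of these genes.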
